A study of Mus musculus with 4 samples.

Results

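The genes described are those that store cellular iron, export it and regulate both: the ferritin chains Fth1 and Ftl1, the exporter ferroportin (Slc40a1), the ferroxidases hephaestin (Heph) and ceruloplasmin (Cp), the iron regulatory proteins Aco1 and Ireb2, and the degradation factors Fbxl5 and Ncoa4. Every probe set whose platform annotation gives 1 of these 9 symbols and no other was taken, which gave 20 of 45037 probe sets, for 8 of the genes. Ftl1 had none of its own. Its 3 probe sets are annotated to the pseudogene Ftl1-ps2 as well (1 of them also to microRNA genes), so their values cannot be assigned to Ftl1 alone and were left out of every count.

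The cells came from kidneys of chimeric mouse embryos taken on embryonic day 15.5. They grew from wildtype mouse blastocysts that had been injected with 3 to 5 embryonic stem cells that carried green fluorescent protein (GFP) and lacked Tfrc, the gene of transferrin receptor 1. Sorting of the dissociated kidneys gave a wildtype (GFP-negative) group from the host and a Tfrc-/- (GFP-positive) group from the injected cells, each on 2 Affymetrix whole-genome arrays called biological replicates. Both groups came from chimeric kidneys and shared the digestion and sorting. The sources used here do not give the host strain, the stem cell line, the promoter of the GFP or the number of animals behind an array. No array held donor cells with Tfrc intact, so loss of Tfrc and other ways in which the donor line departs from the host cannot be told apart.

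Iron that enters a cell and is not used is stored inside ferritin, a hollow shell of heavy chains, which oxidise iron, and light chains, which help it to mineralise. Ferroportin carries iron out through the plasma membrane, and the copper enzymes hephaestin and ceruloplasmin oxidise it on the way to transferrin. When iron is scarce, the iron regulatory proteins bind hairpins called iron-responsive elements, hold back translation of ferritin and ferroportin, and protect the Tfrc mRNA from decay. FBXL5 marks the iron regulatory proteins for degradation when iron is plentiful, and NCOA4 delivers ferritin to the lysosome when it is needed. Much of this control acts on translation and protein stability, which arrays of mRNA do not measure.

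The values are intensities of probe sets, on a linear scale. Differences are the mean log2 intensity of the Tfrc-/- arrays minus that of the wildtype arrays, tested with limma and adjusted by Benjamini-Hochberg over all 45037 probe sets. The labels call the arrays biological replicates but do not say that they came from separate animals. The p-values therefore measure the spread between these arrays, which need not be that between animals. The number of arrays limits the precision: the smallest two-sided p of an exact permutation test is 0.333. The label could not be checked with Tfrc itself, whose brightest probe set read 1759 and 2348 on wildtype and 2509 and 3175 on Tfrc-/- arrays. Its other 2 probe sets also had higher means on the Tfrc-/- arrays, by 0.70 and 1.42 on the log2 scale, the latter with readings of 14.5 and 36.9 on wildtype and 60.8 and 63.1 on Tfrc-/- arrays. The sources used here do not say where in Tfrc the deletion lies, and directions below rest on the label. Of 8 kidney genes listed (Pax8, Wt1, Six2, Hoxd11, Emx2, Lhx1, Cdh16 and Pax2), the 7 with a probe set of their own lay above the control level on all 4 arrays. Of 8 genes of the ureteric bud, the branching epithelium of the kidney, 6 separated downward (both Tfrc-/- arrays below both wildtype arrays), and of 8 proximal tubule genes 3 did, where 14.3% of all genes did. Of the 7 kidney genes, 3 separated downward too and 1 upward, where 20.6% of all genes separated upward. Their part in the results below was not tested. The control level of an array is the brightest of 27 control probe sets for Bacillus subtilis transcripts, between 7.18 and 9.08. In these sorted populations, fewer cells of a type and less RNA per cell cannot be told apart.

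None of the 20 probe sets passed an adjusted p of 0.05 (limma). The background was the same, with 0 of 45037 probe sets called (0%), 3261 (7.24%) at an unadjusted p under 0.05 and 0.132 as the lowest adjusted p. Among the 20, 3 had an unadjusted p under 0.05, 2 of Cp and 1 of Slc40a1, and the adjusted p ranged from 0.38 to 1. Both Tfrc-/- arrays lay above both wildtype arrays for 6 of the 20, where 18.3% of all probe sets did, and both lay below for 0, where 15.2% did. Of these 6, 5 belong to Cp, and 3 of those 5 were not above the control level on all arrays. Among the 14 probe sets of the 8 genes that were, 3 separated upward, 0 downward and 11 overlapped, beside 19.4%, 16.6% and 64.0% of the 28241 probe sets of all genes above it on all arrays. Taking each gene by its brightest probe set, the groups separated for 1 of 8 genes (Cp, higher), against 20.6% of all genes higher and 14.3% lower. The other 7 overlapped. The median difference over the 8 genes was -0.07 on the log2 scale, beside 0.04 over all 18193 genes.

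**Figure D1:**
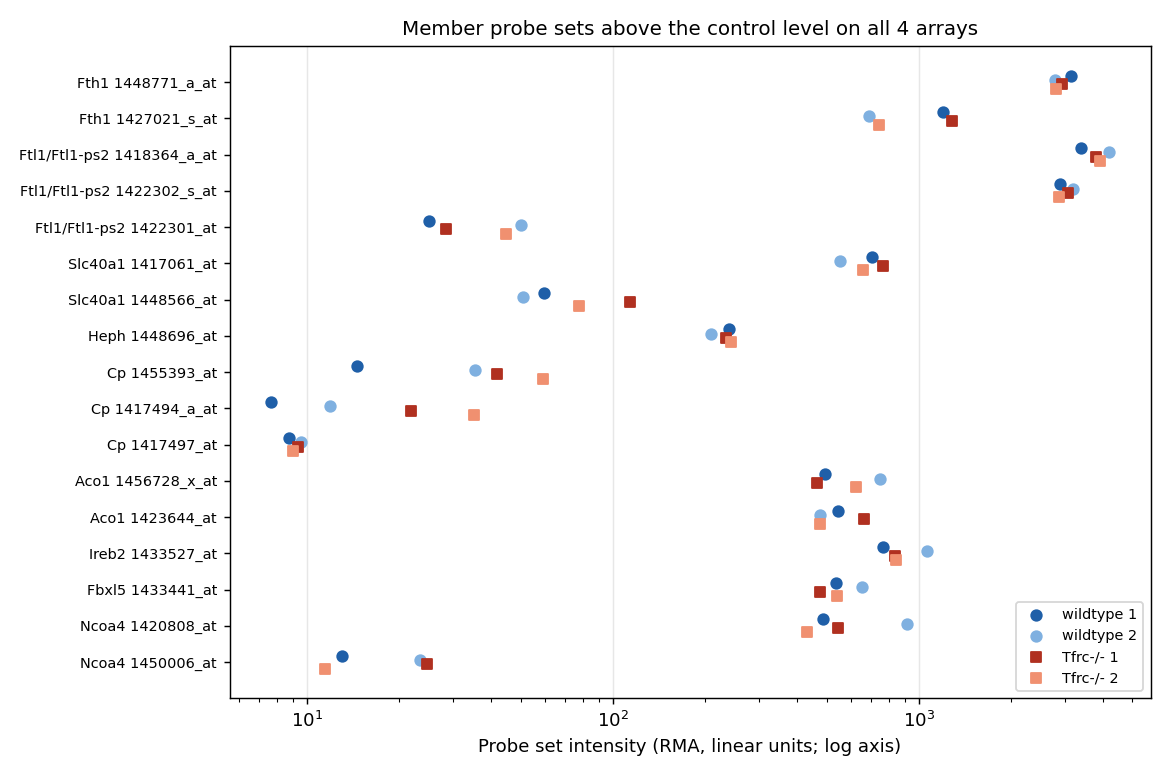
Intensity (log axis) of each probe set above the control level on all 4 arrays, with circles for the wildtype and squares for the Tfrc-/- arrays. The points of ferritin, Heph, Aco1, Ireb2, Fbxl5 and Ncoa4 interleave, while the squares lie to the right of the circles for Slc40a1 1448566_at, Cp 1455393_at and Cp 1417494_a_at.

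Ferritin heavy chain mRNA did not differ detectably between the groups. Fth1 encodes the chain with the iron-oxidising site. Its brighter probe set, 1448771_a_at, read 3154 and 2793 on wildtype and 2937 and 2817 on Tfrc-/- arrays. Both Tfrc-/- values fell between the wildtype values. Their difference on the log2 scale was -0.05 (SE 0.18, limma adjusted p = 1), with a 95% interval from -0.52 to 0.43.

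The second Fth1 probe set, 1427021_s_at, read 1198 and 686 on wildtype and 1288 and 745 on Tfrc-/- arrays. Here the arrays numbered 1 were the high ones in each group and those numbered 2 the low ones. Replicate 1 exceeded replicate 2 by 0.80 in the wildtype and by 0.79 in the Tfrc-/- group on the log2 scale, against a group difference of 0.11 (SE 0.39, limma adjusted p = 1). At the brighter probe set the same replicate differences were 0.18 and 0.06. For beta-actin, the 3′ signal divided by the 5′ signal, a measure of how far labelling reached along the RNA, came to 5.51 and 5.89 for replicates 1 and to 6.49 and 7.21 for replicates 2 (wildtype first). Its part in the Fth1 values was not tested.

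The light chain could be followed only through probe sets that cannot separate Ftl1 from Ftl1-ps2. The probe set 1418364_a_at read 3403 and 4181 on wildtype and 3810 and 3917 on Tfrc-/- arrays, a log2 difference of 0.03 (SE 0.20). The probe set 1422302_s_at read 2907 and 3188 on wildtype and 3087 and 2868 on Tfrc-/- arrays, a log2 difference of -0.03 (SE 0.18). In each case the groups overlapped, and the intervals ran from -0.47 to 0.54 and from -0.50 to 0.44. The third, 1422301_at, annotated to microRNA genes too, read 25.1 and 50.3 on wildtype and 28.4 and 44.8 on Tfrc-/- arrays, so its spread within a group was far wider than its group difference of 0.007 (SE 0.41). For both ferritin chains, the intervals of the 3 brightest probe sets leave room for a change of about 0.5 on the log2 scale in either direction.

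For ferroportin, the only known iron exporter of mammalian cells, the groups separated at 1 of 2 probe sets. The brighter, 1417061_at, read 702 and 554 on wildtype and 768 and 659 on Tfrc-/- arrays, and the lower Tfrc-/- value fell below the higher wildtype value. Its log2 difference was 0.19 (SE 0.22, limma adjusted p = 0.976). The dimmer, 1448566_at, read 59.7 and 51.0 on wildtype and 114 and 77.4 on Tfrc-/- arrays, with no overlap. Its log2 difference was 0.77 (SE 0.26), a 1.70-fold higher mean, with an unadjusted limma p of 0.030 and an adjusted p of 0.612. Without Tfrc-/- replicate 1 that difference was 0.49, and without wildtype replicate 2 the difference of the brighter probe set was 0.02. The 2 probe sets thus gave different sizes for the same gene, and their disagreement was not tested.

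Ferroportin is abundant in macrophages that recycle iron from red cells, so macrophage genes are given beside it. Of 10 listed, 9 lay above the control level on all arrays, Vsig4 on none, and 8 had a higher mean in the Tfrc-/- group. The groups separated upward for 3 (Csf1r, Mrc1 and Cd163), where 20.6% of all genes did, and overlapped for 7, among them Adgre1, Cd68, C1qa, C1qb, C1qc and Timd4. The summed intensity of the list was 4666 and 6218 on wildtype and 6534 and 6709 on Tfrc-/- arrays. Mrc1, a mannose receptor of tissue macrophages, read 539.5 and 447 on wildtype and 834 and 634 on Tfrc-/- arrays. Cd163, the haemoglobin scavenger receptor, read 34.8 on both wildtype arrays and 134 and 44.1 on Tfrc-/- arrays, so its highest value was on the array with the highest ferroportin. The part of macrophages in the ferroportin values was not tested.

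Hephaestin, the membrane-bound ferroxidase that works beside ferroportin, showed no detectable difference. Its probe set 1448696_at read 241 and 209 on wildtype and 235 and 245 on Tfrc-/- arrays. The groups overlapped, and their log2 means differed by 0.09 (SE 0.19, limma adjusted p = 1) with a 95% interval from -0.39 to 0.57.

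Ceruloplasmin, the secreted ferroxidase of plasma, which also has a membrane-anchored form, gave the largest differences of the 8 genes, at low signal. Of its 8 probe sets, 3 lay above the control level on all arrays, 3 on some and 2 on none. The brightest, 1455393_at, read 14.6 and 35.4 on wildtype and 42.0 and 59.1 on Tfrc-/- arrays. Its 2 groups did not overlap, but wildtype replicate 1 minus replicate 2 was -1.28 on the log2 scale. The group difference was 1.13 (SE 0.46), a 2.19-fold higher mean in the Tfrc-/- group, with a limma adjusted p of 0.713. It was 0.49 without wildtype replicate 1 and 1.77 without wildtype replicate 2.

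The probe set 1417494_a_at of Cp read 7.66 and 11.9 on wildtype and 21.8 and 35.2 on Tfrc-/- arrays, every Tfrc-/- value above every wildtype value. The wildtype values were little above the control levels of those arrays, 7.18 and 9.08. Its log2 difference was 1.54 (SE 0.34), 2.91-fold, with an unadjusted limma p of 0.0060 and an adjusted p of 0.38, the lowest of the 20 probe sets. With an offset of 16 added to every intensity before log2, which damps differences among dim probe sets, the difference was 0.78. The probe set 1417495_x_at read 7.77 and 9.01 on wildtype and 12.5 and 13.8 on Tfrc-/- arrays, with wildtype replicate 2 below its control level.

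The remaining 5 Cp probe sets did not show differences of that size. The probe set 1417497_at, above the control level on all arrays, read 8.73 and 9.55 on wildtype and 9.32 and 9.01 on Tfrc-/- arrays, a log2 difference of 0.006 (SE 0.18). The probe set 1448734_at read 12.3 and 7.52 on wildtype and 8.92 and 16.8 on Tfrc-/- arrays, with overlap. The probe set 1417496_at exceeded the control level on 1 array only, and 1441326_at and 1448735_at on none. Even so, the groups separated upward at 1417496_at (6.35 and 7.40 on wildtype, 9.48 and 7.62 on Tfrc-/- arrays). They also did at 1448735_at (5.24 and 4.83 on wildtype, 5.91 and 5.59 on Tfrc-/- arrays). The mean of all 8 probe sets differed by 0.51 on the log2 scale (limma adjusted p = 0.505 over genes). The sources used here do not give the transcript parts or splice forms that the probe sets cover.

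**Figure D2:**
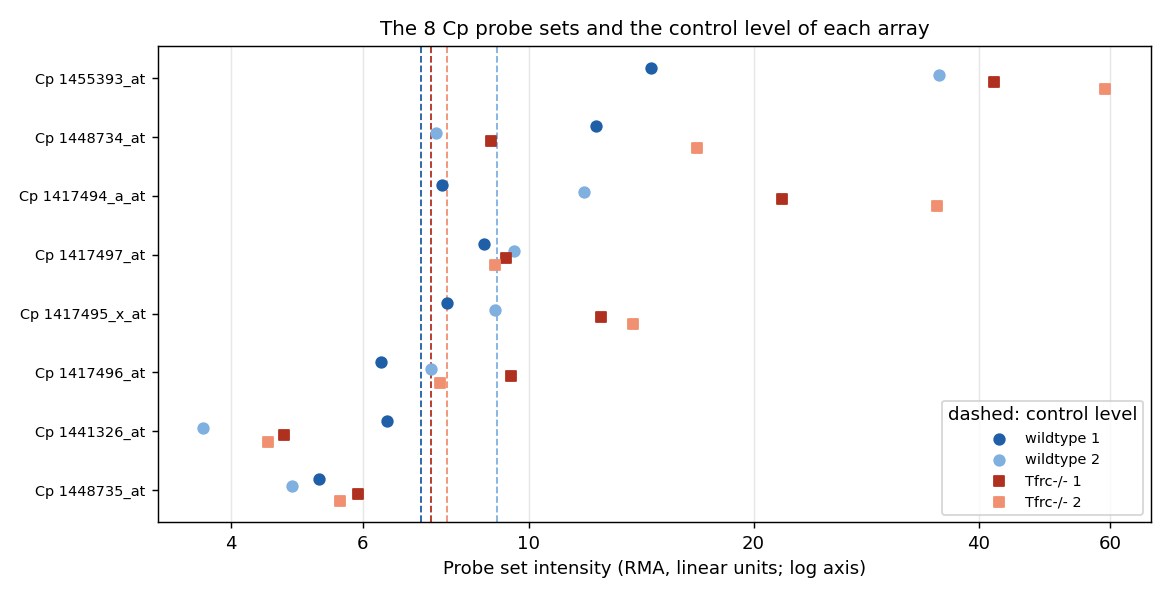
Intensity (log axis) of the 8 Cp probe sets on each array, with the control level of each array as a dashed line of the same colour. At 1455393_at, 1417494_a_at and 1417495_x_at both Tfrc-/- squares lie to the right of both wildtype circles, and the lower 2 probe sets lie below the control levels on every array.

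Hepatocytes are the main source of plasma ceruloplasmin, and 6 of 8 listed hepatocyte genes had a probe set of their own, all above the control level on all arrays. Their summed intensity was 326 and 872 on wildtype and 505 and 524 on Tfrc-/- arrays. The groups overlapped for all 6, where 20.6% of all genes separated upward and 14.3% downward. The defining gene Alb read 8.53 and 11.3 on wildtype and 15.1 and 10.3 on Tfrc-/- arrays, near the control level. Other genes of the list were brighter. Afp read 228 and 441 on wildtype and 223 and 260 on Tfrc-/- arrays, and Ttr 55.0 and 348 on wildtype and 195 and 180 on Tfrc-/- arrays. The summed level of 8 stromal genes, among them Lum and Dcn, was 12744 and 8869 on wildtype and 16058 and 13868 on Tfrc-/- arrays, and 6 of the 8 separated upward, where 20.6% of all genes did. Whether these cells had a part in the Cp values was not tested.

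**Figure D3:**
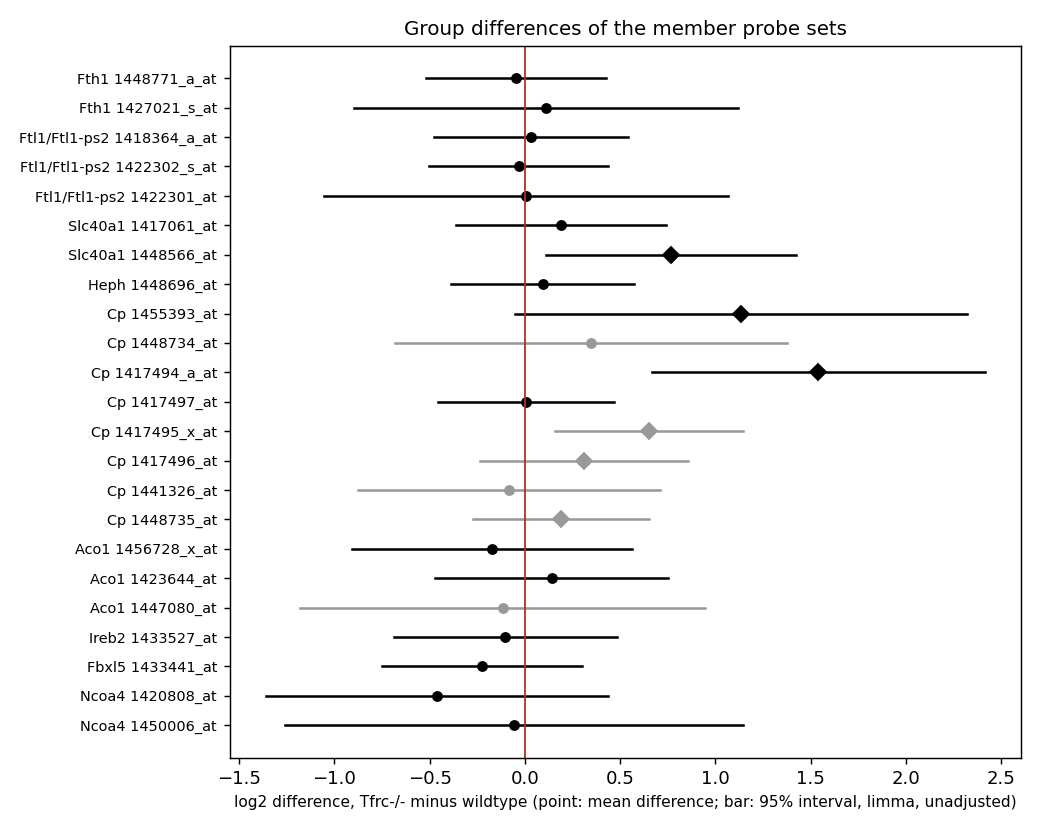
Difference in mean log2 intensity, Tfrc-/- minus wildtype, for each probe set with its unadjusted 95% interval from limma. Diamonds mark groups without overlap and circles groups that overlap, and grey marks probe sets not above the control level on all 4 arrays. The intervals of 1 Slc40a1 probe set (0.11 to 1.42) and 2 of Cp (0.67 to 2.41 and 0.16 to 1.14) lie above 0.

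The iron regulatory proteins showed no difference beyond their spread. Aco1 encodes iron regulatory protein 1, which serves as cytosolic aconitase when it holds an iron-sulphur cluster. Its brightest probe set, 1456728_x_at, read 495 and 746 on wildtype and 465 and 624 on Tfrc-/- arrays, with the arrays numbered 2 high in each group. Its log2 difference was -0.17 (SE 0.29, limma adjusted p = 0.999). The probe set 1423644_at read 544 and 474 on wildtype and 662 and 474 on Tfrc-/- arrays, where the arrays numbered 1 were the high ones, with a log2 difference of 0.14 (SE 0.24). The same gene thus gave opposite signs and opposite replicate orders at its 2 bright probe sets. The third, 1447080_at, read 6.23 and 13.1 on wildtype and 6.89 and 10.1 on Tfrc-/- arrays and lay above the control level on 2 of 4.

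Ireb2 encodes iron regulatory protein 2, which is controlled by degradation and has no aconitase activity. Its only probe set, 1433527_at, read 768 and 1063 on wildtype and 838 and 845 on Tfrc-/- arrays. Both Tfrc-/- values lay between the wildtype values, and the group means differed by -0.10 on the log2 scale (SE 0.23, limma adjusted p = 1). The 95% interval ran from -0.69 to 0.48.

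Fbxl5, the iron-sensing subunit of the ubiquitin ligase that removes the iron regulatory proteins, read 536 and 654 on wildtype and 474 and 541 on Tfrc-/- arrays at 1433441_at. Tfrc-/- replicate 2, at 541, stood just above wildtype replicate 1, at 536, so the groups overlapped narrowly. The Tfrc-/- mean differed by -0.23 on the log2 scale (SE 0.21, limma adjusted p = 0.947), and this ranged from -0.37 to -0.08 when each array was left out in turn.

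Ncoa4, the cargo receptor of ferritin autophagy, had the largest negative difference by brightest probe set. Its probe set 1420808_at read 487 and 918 on wildtype and 544 and 433 on Tfrc-/- arrays. The lower mean of the Tfrc-/- group rested on wildtype replicate 2: with that array left out the log2 difference was -0.006, against -0.46 (SE 0.35, limma adjusted p = 0.915) with all arrays. The dim probe set 1450006_at read 13.0 and 23.5 on wildtype and 24.6 and 11.5 on Tfrc-/- arrays, with a log2 difference of -0.06 (SE 0.47). Red cell precursors turn over ferritin through NCOA4, and erythroid genes were highest on the same array. The summed intensity of 8 measured erythroid genes, including Hbb-y, Alas2 and Slc4a1, was 1375 and 4142 on wildtype and 91.0 and 109 on Tfrc-/- arrays. Of these, 7 lay lower without overlap, where 14.3% of all genes did, and Hba-a1, Epb42 and Rhag did not exceed the control level on any array. Their part in the Ncoa4 value was not tested. The brighter Fth1 probe set stayed between 2793 and 3154 on the same arrays.

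Differences between arrays of a group were compared with those between the groups. For the 14 probe sets above the control level, the signed difference between replicate 1 and replicate 2 was averaged over the groups. Its absolute value exceeded that of the group difference in 9. It did so in 56.0% of the 28241 probe sets of all genes that met the same condition. Opposite replicate differences cancel in this average, which can understate the spread within a group. Replicates differed in the same direction in both groups in 10 of the 14, beside 68.5% of the 28241. The Ncoa4 probe sets were the widest exceptions: 1420808_at differed by -0.91 between the wildtype replicates and by 0.33 between the Tfrc-/- replicates, and 1450006_at by -0.85 and 1.10.

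**Figure D4:**
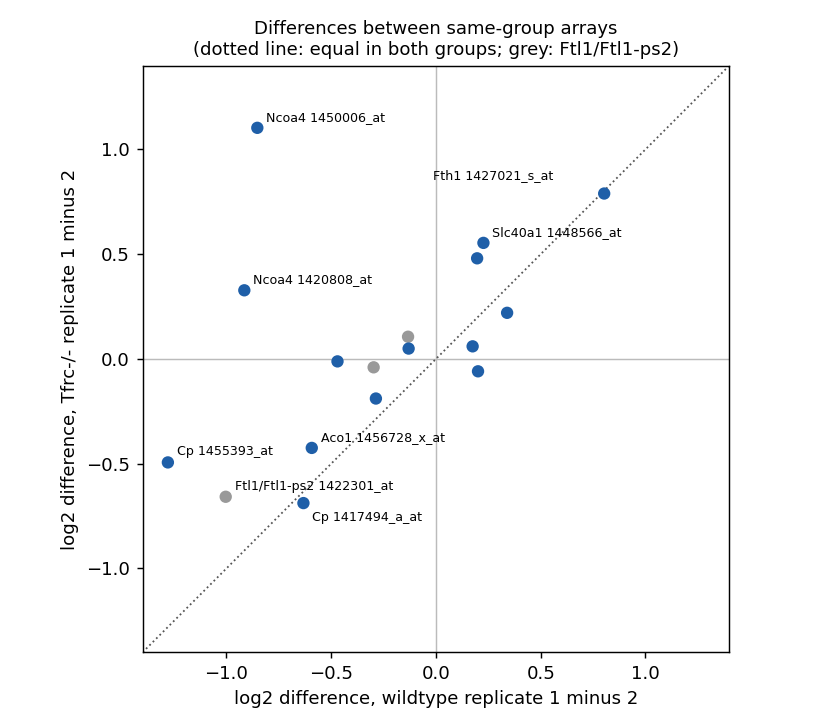
Difference in log2 intensity between replicates 1 and 2 of the wildtype group (horizontal) and of the Tfrc-/- group (vertical) for the probe sets above the control level on all arrays. Fth1 1427021_s_at lies on the dotted line of equal differences, at 0.80 and 0.79, and both Ncoa4 probe sets lie in the upper left, where the groups differ in sign.

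Other genes of iron storage, export and regulation were taken from 4 lists. Of 50 genes measured, 0 passed an adjusted p of 0.05 (limma), 3 had an unadjusted p under 0.05 (7.88% of all genes did), 10 separated upward and 9 downward. Of all genes 20.6% separated upward and 14.3% downward, and the list counts below have these shares beside them. Their median log2 difference was 0.01, beside 0.04 over all genes.

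Among 12 genes of iron storage, chaperoning and delivery, 2 separated upward (20.6% of all genes did) and 1 downward (14.3%), and Ftmt, the mitochondrial ferritin, did not exceed the control level on any array. Slc25a37, the mitochondrial iron importer of red cell precursors, read 179 and 617 on wildtype and 94.3 and 95.2 on Tfrc-/- arrays, a log2 difference of -1.81 (SE 0.58, limma adjusted p = 0.591). Like the erythroid genes it was highest on wildtype replicate 2. Its relative outside the red cell lineage, Slc25a28, read 134 and 146 on wildtype and 159.9 and 159 on Tfrc-/- arrays. Bola2, which works with the glutaredoxin Glrx3 in cytosolic iron delivery, read 1759 and 1778 on wildtype and 2255 and 2206 on Tfrc-/- arrays (log2 difference 0.33, SE 0.18). Pcbp1, a chaperone that hands iron to ferritin, read 2763 and 2666 on wildtype and 2782 and 2670 on Tfrc-/- arrays, with overlap, and Atg7 of the autophagy machinery had a log2 difference of 0.33 (SE 0.29). Pcbp1 was named after its values were seen.

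The hepcidin system, the hormone pathway that removes ferroportin from the membrane, was represented by 22 genes, of which 3 separated upward (20.6% of all genes) and 4 downward (14.3%). Hamp itself, Hjv and the ferroxidase Hephl1 did not exceed the control level on any array. Bmp6, the ligand that reports body iron to hepcidin, read 45.3 and 42.6 on wildtype and 71.4 and 73.8 on Tfrc-/- arrays, with no overlap and arrays of a group close together. Its log2 difference was 0.72 (SE 0.18), with an unadjusted limma p of 0.0093 and an adjusted p of 0.431. Tmprss6, the protease that restrains hepcidin, read 9.28 and 8.21 on wildtype and 11.3 and 12.9 on Tfrc-/- arrays, with wildtype replicate 2 below its control level. Acvr1, a receptor of the same signal, read 130 and 81.7 on wildtype and 76.1 and 81.2 on Tfrc-/- arrays.

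Of 7 genes of the FBXL5 ligase and of oxygen sensing, which also depends on iron enzymes, 3 separated upward (20.6% of all genes) and 0 downward (14.3%), with a median difference of 0.14, beside 0.04 over all genes. With so few genes these counts show nothing particular to the list. The prolyl hydroxylase gene Egln1 read 1089 and 1124 on wildtype and 1325 and 1323 on Tfrc-/- arrays, a log2 difference of 0.26 (SE 0.18, limma adjusted p = 0.892). Egln2 read 293 and 350.0 on wildtype and 409 and 392 on Tfrc-/- arrays, and Skp1, the ligase adaptor, 1000 and 1147 on wildtype and 1165 and 1202 on Tfrc-/- arrays. Egln3 overlapped, with a log2 difference of 0.22 (SE 0.24).

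The last list held mRNAs that carry an iron-responsive element or a related one, apart from the 9 genes above. Of 9 measured, 2 separated upward (20.6% of all genes) and 4 downward (14.3%). The 2 were Sdhb and Tfrc, the latter being the gene that the Tfrc-/- cells lack by their label. The mRNAs with the element behind the coding part, which the iron regulatory proteins stabilise, include Tfrc, with a log2 difference of 0.47 (SE 0.24, limma adjusted p = 0.817), and Slc11a2, which read 34.2 and 69.5 on wildtype and 54.9 and 95.8 on Tfrc-/- arrays and overlapped. Slc11a2 was named after its values were seen. Epas1, a hypoxia-inducible factor with an element before the coding part, read 800.3 and 897 on wildtype and 628 and 614 on Tfrc-/- arrays, a log2 difference of -0.45 (SE 0.18, limma adjusted p = 0.712). The summed level of 8 endothelial genes, a cell type rich in Epas1, was 3050 and 2307 on wildtype and 2267 and 1563 on Tfrc-/- arrays, and its part was not tested. Alas2, the erythroid enzyme of haem synthesis, read 386 and 1349 on wildtype and 22.9 and 12.8 on Tfrc-/- arrays, and it belongs to the erythroid list above as well. Sdhb, whose fly counterpart carries an element, had a log2 difference of 0.31 (SE 0.20).

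The array patterns most like those of Cp and Ncoa4, the 2 members with the largest differences by brightest probe set, were sought among the genes above the control level on all arrays. Likeness was the root mean square distance between log2 values centred over the 4 arrays, over 13570 candidates, and is given as a description only. For Cp they were Eif4ebp1 (0.039), Adgrg2 (0.071) and Dbp (0.077). Eif4ebp1, a repressor of translation initiation, read 310.0 and 809 on wildtype and 941 and 1291 on Tfrc-/- arrays. For Ncoa4 they were Tmprss2 (0.069), Fabp3 (0.070) and Snap91 (0.079), each highest on wildtype replicate 2.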

How the data were processed

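Per the labels' protocols, kidneys were digested and sorted by GFP, and an isothermal linear amplification turned 50 ng of total RNA into biotin-labelled product. The authors deposited probe set intensities on a linear scale. RMA is the only tool in the submitters' processing notes, and the sources used here do not give its version or settings. RMA usually equalises the distributions of arrays, so a shift shared by most genes would be largely removed. The deposited median intensities were still not equal, at 17.9 and 19.3 on wildtype and 17.5 and 18.8 on Tfrc-/- arrays.

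Intensities were log2-transformed and not normalized again. The 64 control probe sets were left out, and 45037 were fitted with limma 3.58.1 in R 4.3.3 (lmFit, eBayes, no block). The platform annotation gave 1 symbol for 34945, several for 932 and none for 9160. Each gene was followed by its probe set of highest mean. In simulated data on 45037 probe sets, 73.6% of changes of 3 and 0% of changes of 1 on the log2 scale were called, with 13 false calls in 5 runs. The simulated arrays varied independently, whereas arrays of the same number deviated together in the data (r = 0.493), so these rates hold only without that shared deviation.

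The members and lists were chosen with earlier results of these data known. Named genes are every member probe set, up to 4 genes per pathway list by smallest p, up to 3 genes per cell type list, and the nearest patterns of 2 members. Genes named for not exceeding the control level or for how their groups lay (Ftmt, Hamp, Hjv, Vsig4 and the macrophage genes, Hba-a1, Epb42, Rhag) were picked after their values were seen. The choice among genes of the cell type lists (Mrc1, Cd163, Alb, Afp, Ttr, Lum, Dcn, Hbb-y, Alas2, Slc4a1) was also made after their values were seen. Alternatives were the replicate block, each array left out, quantile normalization, median centring, an offset, a filter on dim probe sets, another variance model and 2 gene-level summaries.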

Additional observations from a re-analysis of the deposited data

How the results depend on the processing

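No member probe set passed the threshold under any of the 12 alternatives. Of 186 values for the 17 probe sets above the control level on all arrays (the 3 shared ones included), 167 kept their direction, 19 turned and the lowest limma adjusted p was 0.168. Over all probe sets, 2 passed with a trended, robust variance and 1 gene with the mean of its probe sets. The replicate number as a block called 0 of 45037 and 0 of 20 member probe sets, and the pathway genes stayed at 0. Arrays of the same number deviated together (r = 0.493 over probe sets), but the labels do not say what a number shares. The number of member probe sets without overlap was 6 of 20 as reported. By gene it was 1 of 8 with 1 probe set per gene and 2 of 8 with their mean. There the 8 probe sets of Cp, 5 of which separated, count as 1 gene. Without 1 array the number was 10 to 18 of 20, since fewer arrays separate more easily. For the mean and for 1 array left out, the share of all probe sets or genes without overlap was not counted. Those counts therefore show nothing particular to the members.

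Leaving out 1 array turned differences near 0. They ranged from -0.10 to 0.38 for Aco1 1423644_at, from -0.47 to 0.12 for Aco1 1456728_x_at, from -0.060 to 0.071 for Cp 1417497_at, from -0.29 to 0.51 for Fth1 1427021_s_at, and from -0.13 to 0.042 for Fth1 1448771_a_at, which was 0.033 with the mean of probe sets. The shared Ftl1 probe sets ranged from -0.11 to 0.18 (1418364_a_at), from -0.49 to 0.51 (1422301_at, -0.0058 with the offset) and from -0.10 to 0.034 (1422302_s_at). Heph ranged from -0.0074 to 0.19, Ireb2 from -0.34 to 0.13 and Ncoa4 1450006_at from -0.61 to 0.50. Cp 1455393_at (0.49 to 1.77), Cp 1417494_a_at (1.20 to 1.88) and Slc40a1 1448566_at (0.49 to 1.04) kept their direction. So did Slc40a1 1417061_at (0.020 to 0.36) and, downward, Fbxl5 (-0.37 to -0.08) and Ncoa4 1420808_at (-0.92 to -0.006). Signal near the control level limits what can be said of Cp.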
